A study of Mus musculus with 16 samples.

Results

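Heterotrimeric G proteins were described through 10 genes that encode their subunits: the alpha subunits Gnas, Gnal, Gnao1, Gnai1, Gnai2 and Gnaq, the beta subunits Gnb1 and Gnb5, and the gamma subunits Gng7 and Gng3. They were found by gene name among the 24960 annotated genes listed, and reads of their isoforms were summed per sample. Full-length cDNA from mouse brain was read by PacBio Iso-seq. In this method 1 read is meant to cover a transcript from its first exon to its poly(A) tail. Incomplete isoforms, which match only a part of an annotated one, made up 10.9 to 18.0% of a sample's reads. The 16 samples were the cortex and the striatum of non-transgenic (NT) and R6/2 mice, with 4 samples in each of the 4 groups. All mice were males of 3 months of age on the B6CBA background. R6/2 mice, a model of Huntington's disease, carry as a transgene the first exon of human mutant HTT under the human HTT promoter, and express this fragment besides their own mouse huntingtin. NT mice lack the transgene. The labels do not say whether samples with the same number came from 1 animal, so the p-values below measure the spread between these samples, which may in part be technical.

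A heterotrimeric G protein passes the signal of a receptor at the cell membrane to enzymes and channels inside the cell. On activation the alpha subunit exchanges GDP for GTP and parts from the beta-gamma dimer, and either piece can then act on its targets until GTP is hydrolysed. In striatal projection neurons, receptors for dopamine and adenosine raise or lower cyclic AMP through Golf, the G protein made of the Gnal product with the beta subunit Gnb2 product and the Gng7 product, and through the Gi and Go proteins. Cortical neurons instead use Gs, the Gnas product, in the step that stimulates adenylyl cyclase. Gnb5 is the unusual beta subunit that pairs with R7 regulators of G protein signalling such as Rgs9 rather than with gamma subunits.

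Gnas spans chr2:174284320-174346744 on the plus strand of mm10 and gives several products from alternative first exons and from exon 3 (chr2:174336747-174336791), a coding exon of 45 bases. Its mRNA with exon 3 encodes the long form of Gs alpha (394 residues in the annotation). The mRNAs without it encode short forms of 380 or 379 residues, which differ by the use of an acceptor 3 bases upstream. The 24 bases on either side of exon 3 are shown for the transcripts because their shares differed between the samples described below. Capitals mark exon 3 in the first sequence and the 3 extra bases in the second.
Gnas with exon 3: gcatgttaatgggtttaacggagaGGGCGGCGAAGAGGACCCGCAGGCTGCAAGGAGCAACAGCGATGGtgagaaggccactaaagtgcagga
Gnas without exon 3, upstream acceptor: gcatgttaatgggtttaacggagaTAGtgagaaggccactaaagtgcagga
Gnas without exon 3, same acceptor as the long form: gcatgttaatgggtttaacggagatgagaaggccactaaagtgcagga

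The 250 bases before the starts of alternative first exons of Gng7 and Gnas are shown because these first exons were used to different extents in the cortex and the striatum. The windows come from RefSeq (GRCm38.p6), which held windows for 8 of the 10 genes. Capitals mark a GC box (GGGCGG or CCGCCC) or a CCAAT box (CCAAT or ATTGG), searched on both strands. A GC box stood in 32.7% and a CCAAT box in 33.8% of all 32817 windows of this length.
Gng7 upstream start, chr10:81014926-81015175, minus strand: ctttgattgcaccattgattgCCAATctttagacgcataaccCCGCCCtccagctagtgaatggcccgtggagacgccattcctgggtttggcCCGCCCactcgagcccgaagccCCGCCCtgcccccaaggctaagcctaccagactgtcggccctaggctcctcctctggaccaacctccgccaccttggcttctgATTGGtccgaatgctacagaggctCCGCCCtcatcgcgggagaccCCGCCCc
Gng7 downstream start, chr10:81001366-81001615, minus strand: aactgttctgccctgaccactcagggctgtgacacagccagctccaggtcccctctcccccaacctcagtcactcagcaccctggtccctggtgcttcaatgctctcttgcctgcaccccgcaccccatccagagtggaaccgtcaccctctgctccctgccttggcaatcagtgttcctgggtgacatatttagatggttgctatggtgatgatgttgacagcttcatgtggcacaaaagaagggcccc
Gnas exon 1A start, chr2:174327499-174327748, plus strand: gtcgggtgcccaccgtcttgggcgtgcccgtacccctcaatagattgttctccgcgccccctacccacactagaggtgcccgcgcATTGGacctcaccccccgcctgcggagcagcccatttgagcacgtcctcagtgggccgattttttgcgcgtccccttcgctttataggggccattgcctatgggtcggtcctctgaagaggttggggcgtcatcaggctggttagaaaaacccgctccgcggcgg
Gnas exon 1 start, chr2:174329756-174330005, plus strand: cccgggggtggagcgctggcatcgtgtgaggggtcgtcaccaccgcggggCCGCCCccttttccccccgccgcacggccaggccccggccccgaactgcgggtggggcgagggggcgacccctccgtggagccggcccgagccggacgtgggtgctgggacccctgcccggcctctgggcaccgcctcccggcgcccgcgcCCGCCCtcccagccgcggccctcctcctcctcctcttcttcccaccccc

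The window of the upstream Gng7 start held 5 GC boxes, 2 CCAAT boxes and 15 CpG dinucleotides, while that of the downstream start held neither box and 2 CpG. The window of Gnas exon 1A held 1 CCAAT box and 21 CpG, and that of Gnas exon 1 held 2 GC boxes and 29 CpG. The median of all windows was 6 CpG. These matches describe the letters of the windows only.

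Depth differed between samples. Cortical libraries held 252885 to 808814 reads and striatal libraries 317050 to 1496196. In the striatum, samples 1 and 2 of NT and 2 and 3 of R6/2 mice came as 2 count files, whose reads were added up. These 4 stood apart from the other striatal samples, with a mean isoform length of 2125 to 2197 bases against 1589 to 1840 bases and 0.368 to 0.767% against 1.22 to 2.63% mitochondrial reads (cortex 1821 to 2068 bases, 0.266 to 0.488%). The number of files was therefore a term of the striatal and regional fits, the regional values hold for 1-file samples, and values from the 1-file or the 2-file striatal samples alone are given where they changed a call or a sign or differed by over 1.5 times. Choroid plexus markers, summed, reached 9579 CPM in 1 striatal NT sample, NT 3 (Ttr alone 9556 CPM), against 44.7 CPM in the lowest of that group, 85.1 to 305 CPM in the R6/2 striatum, 4.49 to 969 CPM in the NT cortex and 19.1 to 1617 CPM in the R6/2 cortex. All 10 markers of striatal projection neurons were higher in the striatum than in the cortex in both genotypes, and 3 of the 5 cortical excitatory neuron markers that could be tested were lower (Slc17a7, Neurod6 and Neurod2), as the region labels say. The median log2 difference between striatum and cortex over all genes was -0.11 in NT and -0.10 in R6/2 mice, and member values are to be read relative to it. Levels are CPM, the gene's reads scaled to a common library size with TMM factors, and each group's 4 values are given in the order of the sample numbers. Statements that all samples of 1 group lay above or below those of another are descriptions, made for many measures. The share of all genes or isoforms without such overlap was not computed. A full separation of 4 against 4 samples corresponds to p = 0.0286 in a two-sided exact permutation test, before adjustment.

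**Figure D1:**
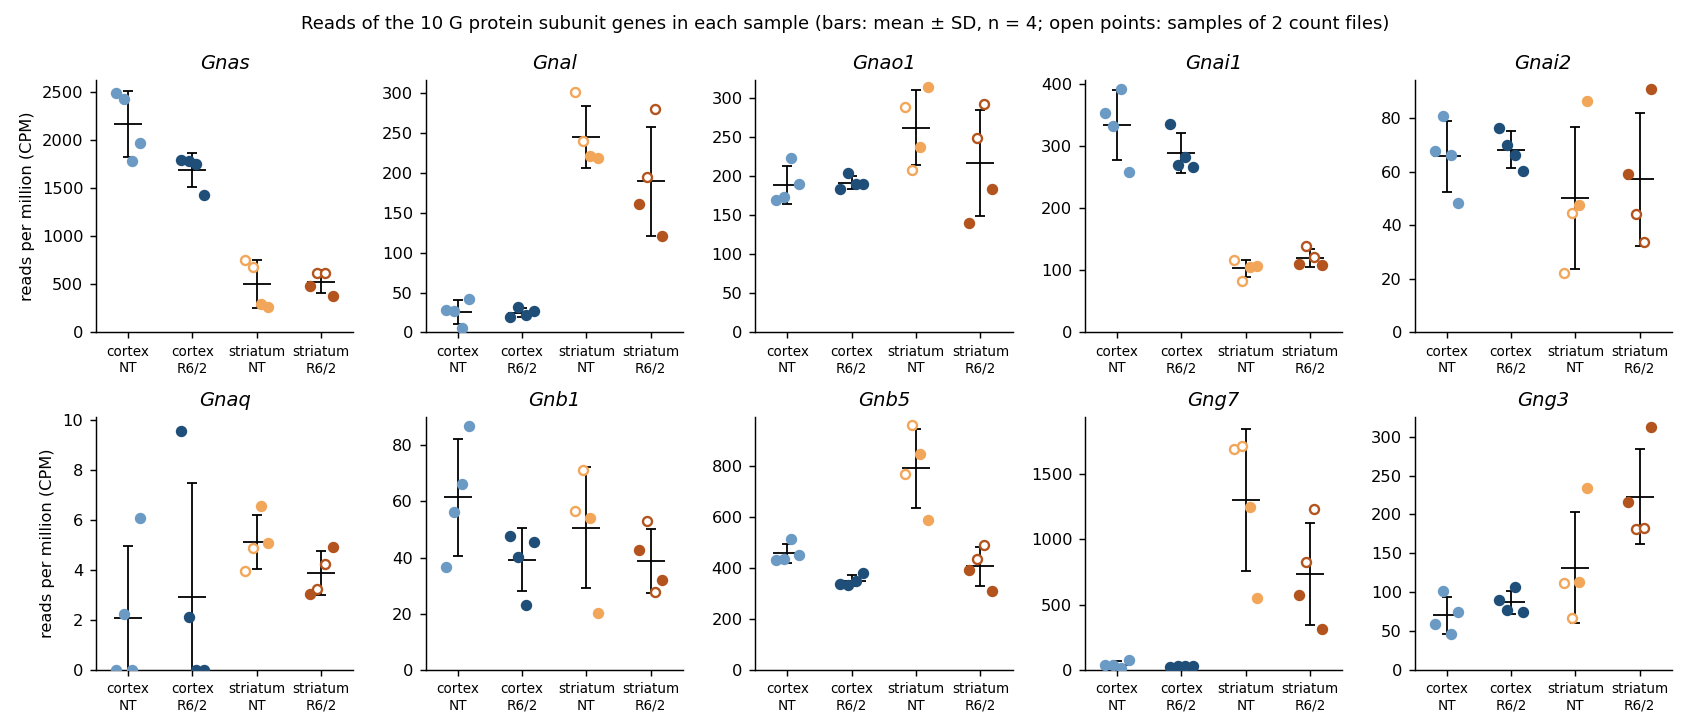
Level in CPM (linear axes from 0) of the 10 genes in each sample, with the mean and SD of the 4 samples of a group as bars and open points for striatal samples of 2 count files. Gnas and Gnai1 lay higher in every cortical than in every striatal sample, Gnal and Gng7 lay higher in every striatal sample, and Gnb5 lay lower in every R6/2 than in every NT sample of the same region.

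Between regions, the NT striatum differed from the NT cortex in 6 of the 9 members that could be tested, 4 higher and 2 lower, where 33.4% of all tested genes were called at an adjusted p under 0.05 (edgeR's quasi-likelihood test), 15.8% higher and 17.6% lower. In R6/2 mice 5 of 9 members were called, 3 higher and 2 lower, against 27.3% of all tested genes, 12.9% higher and 14.3% lower. Gnal, Gng7 and Gng3 were higher and Gnas and Gnai1 lower in the striatum in both genotypes, and Gnb5 was higher in the striatum of NT mice. Between genotypes, 1 of 9 members was called in the striatum, Gnb5, which was lower, against 4.34% of all tested genes, 0.496% higher and 3.84% lower. Another 3 members had an unadjusted p under 0.05 there (Gnal, Gng7 and Gng3). None of 9 was called in the cortex by edgeR or by DESeq2, where 3.27% of all genes were called (0.457% higher and 2.81% lower) and 2 members had an unadjusted p under 0.05. Gnaq had too few reads to be tested.

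**Figure D2:**
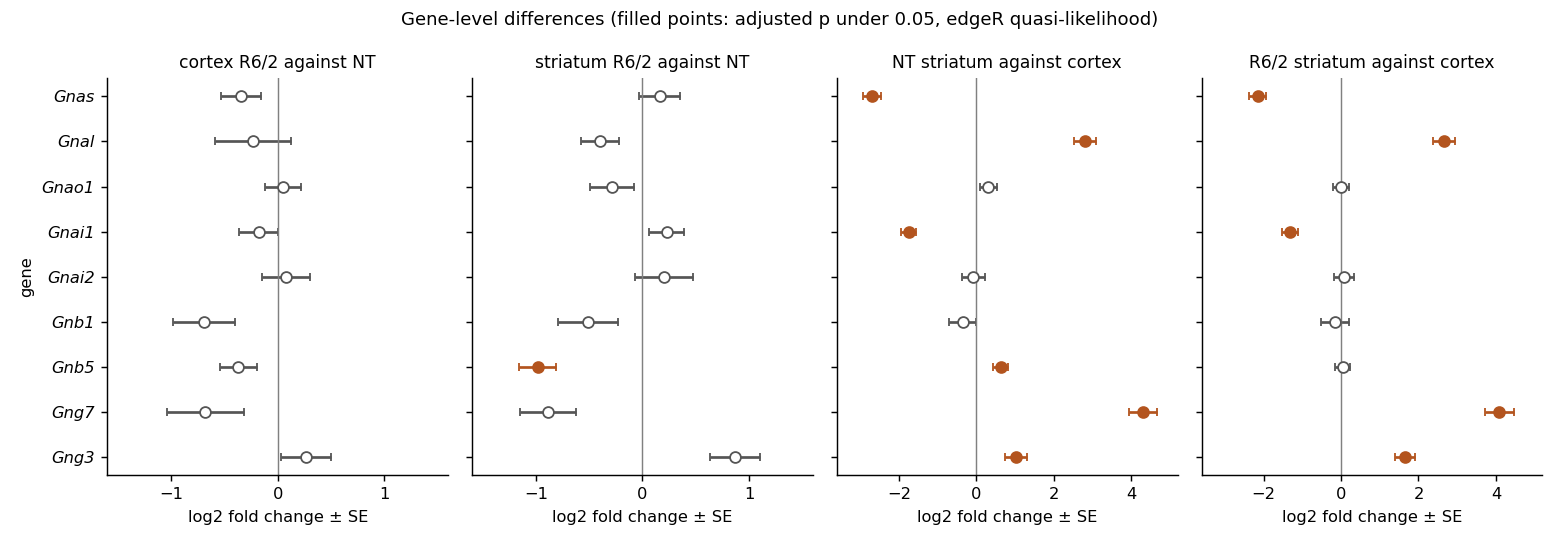
Log2 fold change with its standard error for each tested member in the 4 comparisons, from edgeR. Filled points passed an adjusted p of 0.05. Gnb5 is the only filled point among the genotype comparisons, and 5 members are filled in both region comparisons.

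Gnas, the alpha subunit of Gs that stimulates adenylyl cyclase, reached 2499, 2429, 1789.6 and 1975 CPM in the NT cortex and 759, 676, 300.5 and 269 CPM in the NT striatum. Its levels in R6/2 mice were 1799, 1782, 1753 and 1428 CPM in the cortex and 488, 624, 623 and 376 CPM in the striatum. The lowest cortical sample lay well above the highest striatal sample in both genotypes. The striatal level was 0.154 times the cortical level in NT mice (log2 fold change -2.70 ± 0.23 SE, adjusted p = 2.0e-08) and 0.225 times in R6/2 mice (-2.15 ± 0.22, adjusted p = 3.9e-07). The NT striatum values split by the number of files, with both 1-file samples lowest, and the regional log2 difference was -2.92 with the 1-file striatal samples alone and -1.55 with the 2-file samples alone. R6/2 and NT differed by -0.35 ± 0.19 on the log2 scale in the cortex (adjusted p = 0.35) and by 0.16 ± 0.19 in the striatum (adjusted p = 0.75), where the sign was positive in the 1-file samples (0.60) and negative in the 2-file samples (-0.22).

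Gnal encodes Golf alpha, the relative of Gs alpha that couples dopamine and adenosine receptors to adenylyl cyclase in striatal neurons (chr18:67088216-67226792, plus strand). Its levels were 302, 240.0, 222 and 218 CPM in the NT striatum and 161, 196, 281 and 120.4 CPM in the R6/2 striatum. Cortical levels were 28.2, 27.0, 5.08 and 42.4 CPM in NT mice and 19.1, 31.8, 21.7 and 26.4 CPM in R6/2 mice, and rested on 1 to 21 reads per sample. Every striatal sample exceeded every cortical sample, with a striatal level 6.99 times the cortical one in NT mice (log2 fold change 2.80 ± 0.29, adjusted p = 2.9e-07) and 6.32 times in R6/2 mice (2.66 ± 0.28, adjusted p = 8.5e-07). The regional fold was 7.62 with the 1-file and 9.62 with the 2-file striatal samples in NT mice, and 5.80 and 9.85 in R6/2 mice. In the striatum, 3 of the 4 R6/2 samples lay below all NT samples and R6/2 3 lay among them. The difference of -0.40 ± 0.18 on the log2 scale did not pass the test (adjusted p = 0.27).

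Because Golf and Gs act on the same enzymes, the reads of Gnal were also taken as a percentage of Gnal plus Gnas reads in each sample. This share was 28.5, 26.2, 42.5 and 44.8% in the NT striatum and 24.8, 23.9, 31.1 and 24.3% in the R6/2 striatum. In the cortex it was 1.12, 1.10, 0.283 and 2.10% in NT mice and 1.05, 1.75, 1.22 and 1.82% in R6/2 mice. The difference between regions was 34.3 percentage points in NT and 24.5 points in R6/2 mice, each with p = 0.0286 in a two-sided exact permutation test of 4 against 4 samples, the smallest p that 70 arrangements can give, and 0.057 after adjustment over 4 comparisons. The R6/2 and NT striatum (26.0 ± 3.4% against 35.5 ± 9.5%, SD, n = 4 each) differed by -9.48 points (exact permutation p = 0.17, and 0.22 when samples were permuted within the number of files). That difference was -19.1 points in the 1-file samples and 0.13 points in the 2-file samples. In the cortex the genotypes differed by 0.31 points (exact permutation p = 0.57). Since the 2 genes differ in length, the share compares samples and not the amounts of the 2 proteins.

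Nearly all Gnas reads of known spliced isoforms began at exon 1, which starts Gs alpha, or at exon 1A, the first exon of a transcript that is annotated as noncoding and known to be imprinted. Exon 1A took 3.77, 4.32, 6.04 and 4.67% of these reads in the NT cortex and 13.9, 11.1, 10.8 and 12.8% in the NT striatum. Among R6/2 samples it took 3.80, 5.87, 4.28 and 4.60% in the cortex and 7.86, 8.79, 8.18 and 9.48% in the striatum. Striatal shares were above all cortical shares in both genotypes, and those of the R6/2 striatum were below all of the NT striatum. The difference in first exon usage between regions passed the test in NT mice (diffSpliceDGE of edgeR, gene-level adjusted p = 0.025) and not in R6/2 mice (adjusted p = 0.78), and the difference between these 2 results was not tested. In all, 2 members were called for first exon usage in NT mice, Gnas and Gng7, and 1 in R6/2 mice, Gng7, where 1.31% and 1.18% of all tested genes were called. The Gnas call did not hold without the term for the number of files (adjusted p = 0.25), nor when any of striatum NT 3 or 4, striatum R6/2 1 or 4 or cortex NT 1, 2 or 4 was left out (0.17, 0.13, 0.089, 0.082, 0.082, 0.079 and 0.059 in that order). Between R6/2 and NT striatum the usage test of edgeR gave an unadjusted p of 0.10 and an adjusted p of 1.0.

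In CPM, reads from exon 1 averaged 1941 ± 321 in the NT cortex and 388 ± 205 in the NT striatum (SD, n = 4), whereas reads from exon 1A averaged 93.7 ± 7.7 and 55.3 ± 33.5. The higher share of exon 1A in the striatum thus went with a smaller difference of the exon 1A reads than of the exon 1 reads. In R6/2 mice the averages were 1510.2 ± 143.6 and 424 ± 127 for exon 1 and 73.5 ± 16.5 and 39.5 ± 11.1 for exon 1A. Another 2 coding first exons of the locus were rarely read. The first exon of Nesp, which encodes a secretory protein, was seen in 17 reads of all 16 samples, and that of XL alpha s, the extra-large Gs alpha, in 2 reads.

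Exon 3 was left out of 3.16, 2.16, 4.19 and 2.97% of the reads from exon 1 in the NT cortex and of 6.90, 8.27, 9.23 and 7.32% in the NT striatum. The R6/2 shares were 2.75, 2.57, 2.28 and 1.86% in the cortex and 6.61, 4.55, 4.67 and 5.77% in the striatum. Every striatal share was above every cortical share of the same genotype, and the R6/2 striatum lay below the NT striatum in every sample. The short forms made up 85 of 2951 reads in the NT cortex, 77 of 3209 in the R6/2 cortex, 101 of 1285 in the NT striatum and 68 of 1338 in the R6/2 striatum. The edgeR test of exon 3 usage counted as skipping only the short form with the acceptor of the long form. As including it also counted reads from the other first exons. The shares above, of both short forms among exon 1 reads, were therefore not tested as such. That test gave an unadjusted p of 0.0071 between regions in NT mice and of 0.012 in R6/2 mice. Neither passed adjustment over all exons tested (adjusted p = 0.67 and 1.0 from edgeR, with 0.209% and 0% of the tested exons called). Between genotypes the same test gave an unadjusted p of 0.77 in the cortex and 0.55 in the striatum. In the isoform usage test of edgeR, the short form with the upstream acceptor was lower in the R6/2 striatum (unadjusted p = 0.045, adjusted p = 0.81). The other short form was lower there too, with an unadjusted p of 0.31 in that test. Among the short forms, the acceptor 3 bases upstream, shown in the second Gnas sequence, was used in 203 reads and the acceptor of the long form in 128.

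**Figure D3:**
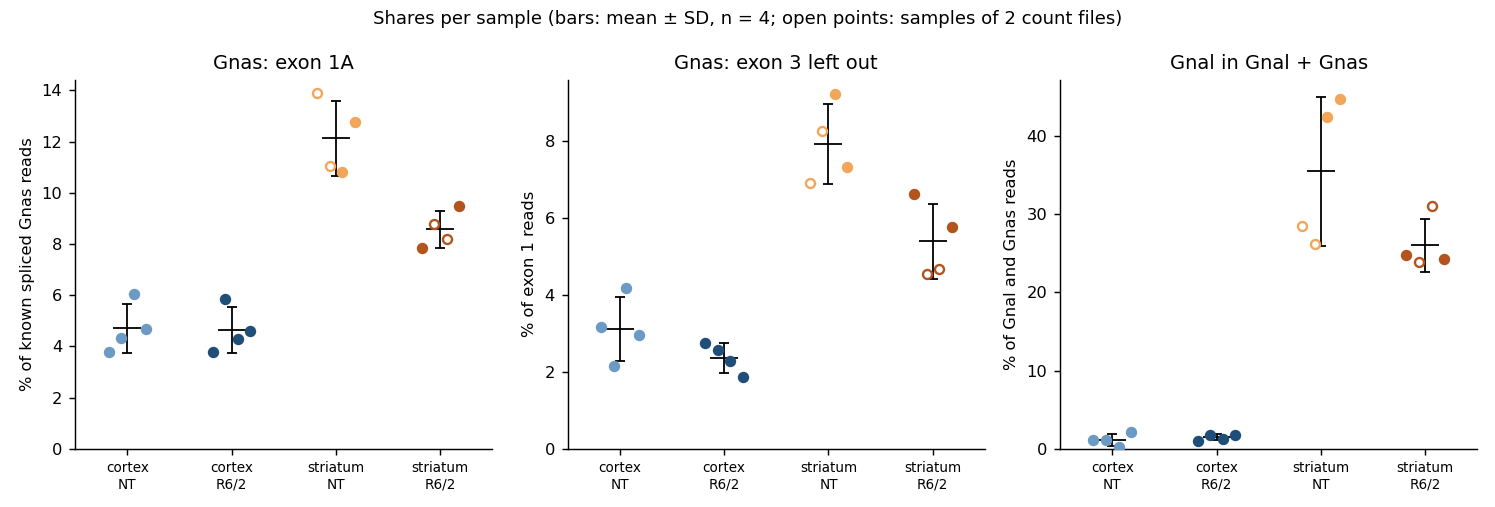
Share of exon 1A among reads of known spliced Gnas isoforms, share of exon 1 reads without exon 3, and Gnal reads as a percentage of Gnal and Gnas reads, in each sample with the mean and SD of the group (n = 4) and open points for striatal samples of 2 count files. All 3 shares were higher in every striatal sample than in every cortical sample of the same genotype, and the first 2 were lower in every R6/2 than in every NT striatal sample.

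Gnal has 2 known isoforms with different first exons, a form of 381 residues with 773 reads and a longer form of 448 residues with 86 reads. The longer form took 5.26, 8.28, 1.45 and 0% of the reads of both forms in the NT striatum, the last value resting on 13 reads, and 9.84, 11.4, 11.1 and 9.09% in the R6/2 striatum. All R6/2 values were above all NT values, with 43 of 395 reads against 24 of 422, and the usage test of edgeR gave an unadjusted p of 0.053 and an adjusted p of 1.0. In the cortex it made up 7 of 18 reads in NT and 12 of 24 in R6/2 mice. The longer form thus had a smaller share in the striatum, with an adjusted p of 0.087 in NT and 0.091 in R6/2 mice, which missed the threshold. Leaving out 1 sample at a time took the R6/2 value from 0.030 (without cortex R6/2 2) to 0.65 (without cortex R6/2 3). Its level was 6.21 ± 6.26 CPM in the NT striatum and 3.70 ± 4.31 CPM in the NT cortex (SD, n = 4), while the shorter form stood at 129 ± 61 and 6.18 ± 4.53 CPM.

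Gnao1, which encodes the alpha subunit of Go, the most abundant G protein of brain membranes, was close to level over the groups. It reached 169, 173, 224 and 189.7 CPM in the NT cortex, 183, 204, 191 and 189.9 CPM in the R6/2 cortex, 289, 208, 238 and 315 CPM in the NT striatum and 139.8, 249.7, 293 and 184 CPM in the R6/2 striatum. The groups overlapped in all 4 comparisons, and no difference passed the test. The log2 differences were 0.31 ± 0.22 between regions in NT mice (adjusted p = 0.29), -0.0021 ± 0.22 in R6/2 mice (adjusted p = 1.0), 0.05 ± 0.17 between genotypes in the cortex (adjusted p = 0.92) and -0.29 ± 0.21 in the striatum (adjusted p = 0.54). The striatal genotype difference was -0.75 in the 1-file samples and 0.11 in the 2-file samples, and the regional difference in R6/2 mice was -0.25 and 0.52.

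The coding Gnao1 reads came from 2 isoforms that end differently after the same coding sequence of 354 residues, 1 whose last exon runs on (684 reads) and 1 with a further splice in the 3′ end (407 reads). The spliced end took 31.6 ± 6.1% of them in the NT cortex, 30.4 ± 1.6% in the R6/2 cortex, 42.1 ± 7.3% in the NT striatum and 38.2 ± 5.0% in the R6/2 striatum (SD, n = 4). These ranges overlapped between genotypes, and last exon usage gave unadjusted p-values between 0.67 and 0.91. The annotated isoform with the alternative pair of last exons, which encodes the Go2 type of the subunit, had 3 reads. A single-exon isoform at the 3′ end of the gene, annotated as a retained intron, had 532 reads.

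Gnai1 and Gnai2 encode alpha subunits of Gi proteins, which inhibit adenylyl cyclase. Gnai1 reached 353, 333, 391 and 258 CPM in the NT cortex and 117, 83.5, 105 and 107 CPM in the NT striatum. R6/2 levels were 336, 269, 283 and 267 CPM in the cortex and 109, 139, 121 and 108 CPM in the striatum. Every striatal sample lay below every cortical sample. The striatal level was 0.298 times the cortical level in NT mice (log2 fold change -1.75 ± 0.21, adjusted p = 1.2e-06) and 0.401 times in R6/2 mice (-1.32 ± 0.20, adjusted p = 4.1e-05). R6/2 and NT differed by -0.18 ± 0.19 in the cortex and by 0.23 ± 0.17 in the striatum (adjusted p = 0.68 and 0.53).

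The Gnai1 difference rested on an incomplete isoform. An isoform of 7 exons, which TALON classed as a prefix of the annotated one, so that it lacks the last junction, took 357 reads in the NT cortex, 434 in the R6/2 cortex, 121 in the NT striatum and 162 in the R6/2 striatum. Its listed length of 2360 bases exceeds the 1060 bases of the annotated exons before the last. The annotated isoform of 8 exons took 61, 66, 117 and 142 reads. Of the reads of both, the 7-exon isoform made up 95.7, 85.6, 67.1 and 85.8% in the NT cortex and 35.0, 52.1, 71.2 and 58.3% in the NT striatum. Shares in R6/2 samples were 93.2, 84.2, 82.7 and 86.8% in the cortex and 58.9, 53.0, 47.4 and 61.1% in the striatum. In CPM the 7-exon isoform averaged 245 ± 54 in the NT cortex and 43.2 ± 11.8 in the NT striatum, while the 8-exon isoform averaged 50.4 ± 45.6 and 38.7 ± 20.5 (SD, n = 4). When incomplete isoforms were left out, the region difference was -0.67 on the log2 scale in NT mice (adjusted p = 0.27) and 0.011 in R6/2 mice (adjusted p = 0.99). The 7-exon isoform was chosen after its values were seen, and isoform usage with incomplete isoforms added gave adjusted p = 0.57 in NT and 0.10 in R6/2 mice for Gnai1, where 1.74% and 2.06% of all tested genes were called (0.153% and 0.165% between genotypes in cortex and striatum).

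**Figure D4:**
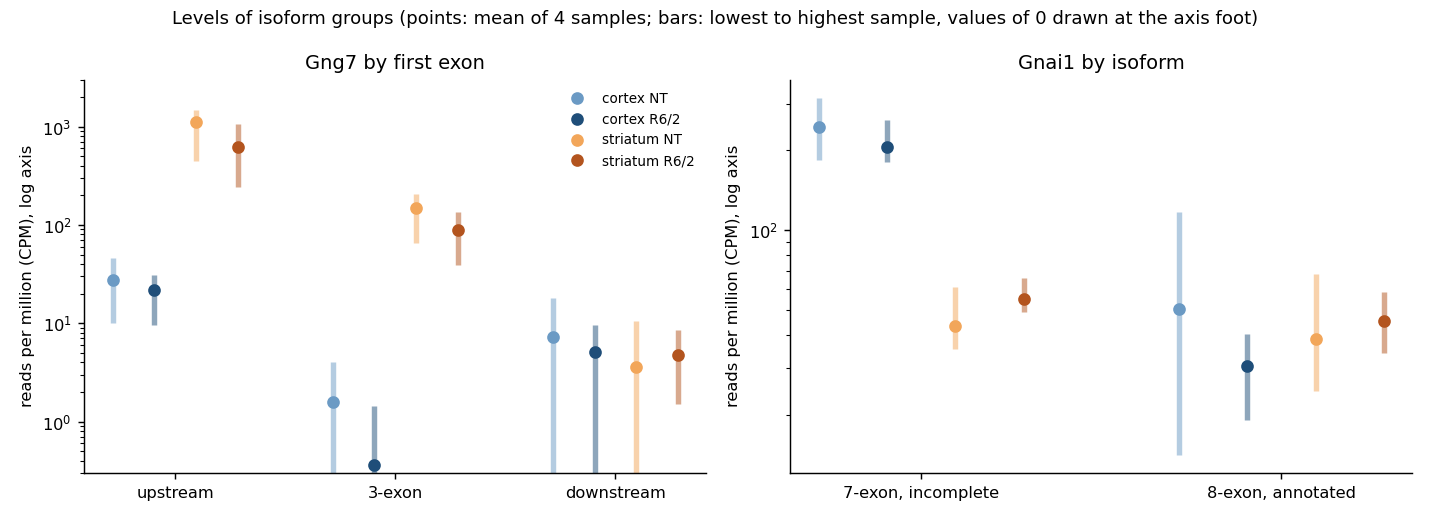
Mean level (points) and range from the lowest to the highest of 4 samples (bars) of Gng7 reads by first exon and of Gnai1 reads by isoform, in CPM on log axes, with samples at 0 drawn at the foot of the axis. Gng7 reads from the upstream first exon and of the 3-exon isoform were higher in the striatum while those from the downstream first exon were at similar levels, and the 7-exon Gnai1 isoform differed between regions more than the 8-exon isoform did.

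Gnai2 reached 67.7, 80.9, 66.1 and 48.4 CPM in the NT cortex, 76.4, 70.02, 66.4 and 60.1 CPM in the R6/2 cortex, 22.3, 44.6, 47.6 and 86.3 CPM in the NT striatum and 59.2, 44.3, 33.9 and 90.9 CPM in the R6/2 striatum. The groups overlapped in all comparisons. The log2 differences lay between -0.08 and 0.20 in the 4 comparisons, with adjusted p between 0.79 and 0.91. A region difference of -0.86 in NT and -0.78 in R6/2 mice passed the test when only the 2-file striatal samples were used (adjusted p = 0.042 and 0.049), as did one of -1.35 in NT mice without incomplete isoforms (adjusted p = 0.044). Its 2 coding isoforms had 130 and 26 reads. A 2-exon isoform annotated as a retained intron took 22.2, 40.0, 0 and 41.2% of complete Gnai2 reads in the NT cortex, the third value of 3 reads, and 57.7, 63.6, 56.0 and 53.8% in the R6/2 cortex. The R6/2 values were above all NT values. The isoform usage test of edgeR gave an unadjusted p of 0.033 and an adjusted p of 0.79. In the striatum the 2-exon isoform had 7 reads in NT and 32 in R6/2 mice, and its shares overlapped. The same test gave an unadjusted p of 0.054 and an adjusted p of 0.76 there.

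Gnaq encodes the alpha subunit that activates phospholipase C beta. Its counted reads numbered 4 in the NT cortex, 6 in the R6/2 cortex, 14 in the NT striatum and 11 in the R6/2 striatum, so that each sample held 0 to 6 reads, and 3 reads of a sample correspond to 2.43 to 15.3 CPM. No difference was detectable at this depth. Most reads of the gene, 89.6%, were of the genomic class, which matches no annotated exon structure and was left out of the counts. In CPM these averaged 38.5 ± 4.5 in the NT cortex, 38.9 ± 7.0 in the R6/2 cortex, 25.2 ± 8.0 in the NT striatum and 35.8 ± 8.1 in the R6/2 striatum (SD, n = 4). Only 16 reads in all matched the annotated 7-exon mRNA, whose length is 5644 bases.

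Gnb1, the beta subunit found in many G proteins, reached 36.7, 56.2, 66.1 and 86.8 CPM in the NT cortex and 47.8, 40.3, 23.1 and 45.7 CPM in the R6/2 cortex. In the striatum it reached 56.5, 71.3, 54.2 and 20.3 CPM in NT and 42.5, 53.0, 27.6 and 31.9 CPM in R6/2 mice. The groups overlapped throughout, and sample counts were 4 to 88 reads. R6/2 and NT differed by -0.69 ± 0.29 on the log2 scale in the cortex (unadjusted p = 0.029, adjusted p = 0.23) and by -0.51 ± 0.28 in the striatum (adjusted p = 0.38). Between regions the log2 difference was -0.35 ± 0.35 in NT (adjusted p = 0.46) and -0.15 ± 0.35 in R6/2 mice (adjusted p = 0.79). Taken alone, the 1-file and the 2-file samples gave a striatal genotype difference of -0.20 and -0.71 and a regional difference in NT mice of -0.50 and 0.10. The isoforms with most reads were the full 12-exon mRNA with 119 reads, a 4-exon retained intron with 44, an 11-exon mRNA without the second exon with 33, another 12-exon mRNA with 25 and an unannotated 11-exon combination of known splice sites with 10. The exon chr4:155515631-155515679 of the 5′ untranslated part, with 49 bases, was skipped in 6 of 31 reads in the NT cortex, 2 of 28 in the R6/2 cortex, 17 of 78 in the NT striatum and 8 of 40 in the R6/2 striatum. No difference in its use passed the test between regions or between genotypes in the striatum. Between genotypes in the cortex, skipping reads were too few for the test. The genomic class held 43.9% of all Gnb1 reads.

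Gnb5 was the member with a difference between genotypes (chr9:75306288-75345876, plus strand). Its levels were 768, 961, 849 and 589 CPM in the NT striatum and 390.4, 436, 492 and 309.6 CPM in the R6/2 striatum. Every R6/2 sample was below every NT sample, in the 1-file samples (849 and 589 against 390.4 and 309.6) and in the 2-file samples (768 and 961 against 436 and 492). The R6/2 level was 0.506 times the NT level (log2 fold change -0.98 ± 0.18, adjusted p = 0.0068). Within 1-file samples the log2 difference was -1.04 (adjusted p = 0.19) and within 2-file samples -0.92 (adjusted p = 0.13), with 2 samples a group, and without the term for the number of files it was -0.98 (adjusted p = 0.13).

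In the cortex Gnb5 reached 432, 436, 513 and 452 CPM in NT and 338, 333, 349 and 379.8 CPM in R6/2 mice. All R6/2 samples were again below all NT samples, with a log2 difference of -0.37 ± 0.17 that did not pass adjustment (unadjusted p = 0.046, adjusted p = 0.28). The test of whether the genotype difference depended on the region gave -0.58 ± 0.24 with an unadjusted p of 0.022 and an adjusted p of 0.85. No member passed that interaction test by edgeR or DESeq2, 1 had an unadjusted p under 0.05, and 0.0406% of all genes were called (0.0271% with a higher and 0.0135% with a lower value). Between regions, Gnb5 was 1.54 times higher in the striatum of NT mice (log2 fold change 0.63 ± 0.19, adjusted p = 0.012), and leaving out striatum NT 3, the sample with the high choroid plexus markers, gave 0.50 (adjusted p = 0.091). In R6/2 mice the regions differed by 0.04 ± 0.19 (adjusted p = 0.90). A single 11-exon isoform of 353 residues held 4694 complete reads of Gnb5 and between 95.3 and 97.5% of them in every sample, so the differences in level were differences of this isoform.

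The partners of Gnb5 were on a list of 16 regulators and chaperones of G proteins, of which 15 had rows. In the R6/2 striatum 2 of the 11 tested genes were lower than in NT mice and none was higher, against 3.84% lower and 0.496% higher among all genes, and the median log2 difference was 0.04 against 0.00 over all genes. Both called genes are tied to Gnb5, and the chaperones on the list, Cct2 and Cct4 among them, were not called. Rgs9, the R7 regulator of striatal neurons that accelerates GTP hydrolysis, reached 753, 932, 622 and 691 CPM in the NT striatum and 134, 159.9, 211 and 88.5 CPM in the R6/2 striatum (log2 fold change -2.37 ± 0.19, adjusted p = 2.4e-05). Rgs7bp, which anchors the complex of Gnb5 and R7 regulators to the membrane, reached 456, 533, 476 and 645 CPM in NT and 254, 183, 231 and 241 CPM in R6/2 mice (-1.23 ± 0.17, adjusted p = 0.0011). Neither gene's groups overlapped. In the cortex none of 7 tested genes of the list was called, where 3.27% of all genes were.

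Gng7, the gamma subunit of Golf in striatal projection neurons (chr10:80948624-81014945, minus strand), showed the largest regional difference of the 9 tested members. It reached 1691, 1718, 1248 and 549 CPM in the NT striatum and 573, 828, 1232 and 312 CPM in the R6/2 striatum. Cortical levels were 33.8, 38.2, 10.2 and 76.7 CPM in NT and 19.1, 29.7, 30.3 and 31.3 CPM in R6/2 mice, with 2 to 38 reads per sample. The striatal level was 19.7 times the cortical level in NT mice (log2 fold change 4.30 ± 0.36, adjusted p = 1.9e-08) and 16.9 times in R6/2 mice (4.08 ± 0.37, adjusted p = 1.0e-07). The regional fold was 20.7 with the 1-file and 40.2 with the 2-file striatal samples in NT mice, and 16.1 and 37.7 in R6/2 mice. Within the striatum the genotypes overlapped because of NT 4, and the log2 difference of -0.89 ± 0.26 did not pass the test (adjusted p = 0.080). It was -1.03 in 1-file samples and -0.75 in 2-file samples. Leaving out 1 sample at a time gave values from -1.06 (without striatum NT 4, adjusted p = 0.023) to -0.56 (without striatum NT 3, adjusted p = 0.26). Of 11 other settings, 4 gave a call, with adjusted p between 0.0011 and 0.59. In the cortex the genotypes differed by -0.68 ± 0.36 (adjusted p = 0.34).

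The Gng7 reads came from 3 first exons. An upstream exon began 3653 reads in the NT striatum and 2049 in the R6/2 striatum, against 47 and 44 in the cortex of the 2 genotypes. A downstream first exon, whose isoform encodes 69 instead of 68 residues, began 16 reads in the striatum of either genotype, of 4139 in NT and 2355 in R6/2 mice, and 13 of 63 and 12 of 57 reads in the cortex. Its share was therefore below 1% in every striatal sample (at most 0.862%), while cortical shares were 27.3, 6.25, 0 and 26.5% in NT and 50.0, 7.14, 30.0 and 0% in R6/2 mice, from 2 to 34 reads per sample. In CPM, the downstream exon averaged 7.22 ± 8.13 in the NT cortex, 5.08 ± 4.74 in the R6/2 cortex, 3.62 ± 4.97 in the NT striatum and 4.73 ± 3.297 in the R6/2 striatum (SD, n = 4), and the upstream exon 27.6 ± 15.3, 21.8 ± 9.7, 1105.9 ± 479.2 and 617 ± 344. The difference between regions was thus in the reads from the upstream exon and in those of a 3-exon isoform that starts in an extended form of the second exon they share, with 3 and 1 cortical reads against 470 and 290 striatal reads.

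First exon usage of Gng7 differed between regions in both genotypes (adjusted p = 3.3e-06 in NT and 0.00019 in R6/2 mice), as did isoform usage (adjusted p = 1.9e-08 and 1.1e-05). It was the only member called for isoform usage, where 0.372% and 0.496% of all tested genes were called. Within the striatum, the 3-exon isoform took 10.4 to 12.9% of the first exon reads in NT and 11.3 to 13.8% in R6/2 samples, and usage did not differ between genotypes beyond the spread of samples (first exon unadjusted p = 0.45). The windows printed above belong to the upstream and the downstream start, and the start of the 3-exon isoform is not among them. Sample shares of the upstream and of the downstream start overlapped between regions in both genotypes. Those of the 3-exon isoform were higher in every striatal than in every cortical sample of the same genotype. The upstream start, which began most first exon reads in both regions, holds the GC and CCAAT boxes in capitals, and the downstream start holds neither. Both strands were also searched for a TATA box (TATAAA) and a CRE core (TGACG), found in 12.4% and 17.8% of all windows. The downstream Gng7 window holds 1 CRE core and the upstream window none, Gnas exon 1A holds 1 of each, and Gnas exon 1 holds 1 CRE core.

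Gng3, a gamma subunit of neurons, reached 59.2, 101, 45.8 and 74.7 CPM in the NT cortex, 89.8, 76.4, 107 and 74.5 CPM in the R6/2 cortex, 112, 66.5, 113 and 234 CPM in the NT striatum and 216, 182, 182 and 312 CPM in the R6/2 striatum. R6/2 striatal samples lay above the NT samples except NT 4. The log2 difference between genotypes was 0.87 ± 0.24 in the striatum (adjusted p = 0.056), and it was called without NT 4 (1.09, adjusted p = 0.0071) or NT 1 (1.01, adjusted p = 0.034). Leaving out 1 sample at a time gave values from 0.72 to 1.09 and adjusted p up to 0.18, and 5 of 11 other settings gave a call, with adjusted p between 0.00036 and 0.60. In the cortex it was 0.27 ± 0.24 (adjusted p = 0.61). The striatal level was 3.15 times the cortical level in R6/2 mice (log2 fold change 1.65 ± 0.26, adjusted p = 5.4e-05) without overlap, and 2.04 times in NT mice (1.03 ± 0.29, adjusted p = 0.0077) with overlap. In R6/2 mice the fold was 2.98 with the 1-file and 2.10 with the 2-file striatal samples. The NT difference was 0.30 with the 2-file striatal samples (adjusted p = 0.48) and 0.70 without striatum NT 4 (adjusted p = 0.072). One 3-exon isoform of 75 residues held 1070 reads and at least 92.6% of complete reads in every sample.

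Across genotypes, no member was called for isoform, first exon, last exon or cassette exon usage in either region, where in cortex and striatum 0.36% and 0.451% of all genes were called for isoforms, 0.707% and 0.423% for first exons, 0.164% and 0.426% for last exons, and 0.391% and 1.6% of exons for cassettes. None was called for last exons between regions either (0.226% of genes in NT and 0.15% in R6/2 mice). Before adjustment, Gnai2 had a gene-level p under 0.05 for isoform usage (0.033) and last exon usage (0.023) in the cortex and for first exon usage (0.037) in the striatum. No other member had a gene-level p under 0.05.

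The other G protein subunits were described by a list of 23 genes, of which 22 had rows. In the R6/2 striatum none of 12 tested was called against NT mice, where 4.34% of all genes were called. The median log2 difference was 0.05 against 0.00 over all genes. In the cortex 1 of 9 was called, against 3.27% of all genes (0.457% higher and 2.81% lower). This was Gng10, at 56.4, 67.4, 102 and 92.8 CPM in NT and 145, 132, 142 and 113 CPM in R6/2 mice (log2 fold change 0.78 ± 0.21, adjusted p = 0.042). Between regions, 6 of 12 were called in each genotype, 4 higher and 2 lower in the striatum, against 33.4% of all genes in NT and 27.3% in R6/2 mice. Higher were the gamma subunits Gng5, Gng10, Gng11 and Gng13 in both genotypes, and lower were Gnaz, an alpha subunit of the Gi family, in both, Gnb4 in NT and Gng2 in R6/2 mice. For Gng5 and Gng13 the call rested on the 1-file striatal samples. Gng13 stood at 182 and 417 CPM in the 1-file and at 65.7 and 59.2 CPM in the 2-file NT striatal samples, against 106 to 181 CPM in the NT cortex. Gng5 stood at 167 and 361 CPM and at 43.4 and 46.2 CPM, against 35.6 to 87.4 CPM. Gnaz lay clearly below the cortex in the 1-file striatal samples alone (54.2 to 72.9 CPM). Its 2-file samples overlapped the cortex in NT (99.9 and 112 CPM against 106 to 153 CPM) and R6/2 mice (111 and 98.6 CPM against 98.6 to 139 CPM). For Gng10 in R6/2 mice, the 1-file samples (207 and 206 CPM) lay above the cortex (113 to 145 CPM), and the 2-file samples (137 and 152 CPM) overlapped it.

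Of 16 effectors of G proteins, 5 could be tested between genotypes in the striatum. Adcy5, the main adenylyl cyclase of the striatum, was lower in R6/2 mice (229, 247, 296 and 274 CPM in NT, 77.5, 76.7, 68.9 and 68.8 CPM in R6/2 mice, log2 fold change -1.84 ± 0.15, adjusted p = 2.4e-05), as was Plcb1, a phospholipase C beta (-0.83 ± 0.20, adjusted p = 0.029). The Plcb1 groups overlapped. NT stood against R6/2 at 319 and 411 against 131 and 184 CPM in the 1-file samples. In the 2-file samples the difference was smaller, with 102.5 and 97.3 against 76.7 and 73.1 CPM. Both calls of 5 genes stand against 3.84% lower among all genes. The median of the 5 was -0.80 against 0.00 over all genes. In the cortex none of 4 was called, where 3.27% of all genes were. Between regions, 8 effectors could be tested, and 33.4% of all genes were called in NT and 27.3% in R6/2 mice. Adcy5 and Plcb1 were higher and Adcy2 and Kcnj9, a subunit of G protein-gated potassium channels, lower in the striatum in both genotypes. Trio was lower in NT mice. For Plcb1 the regional call rested on the 1-file striatal samples (319 and 411 CPM in NT, 131 and 184 CPM in R6/2 mice), since the 2-file samples (102.5 and 97.3 CPM, 76.7 and 73.1 CPM) were not above the cortex (81.8 to 188 CPM, 84.9 to 98.2 CPM). Ric8b, the chaperone of Golf and Gs alpha subunits, was higher in the striatum in NT (log2 fold change 2.29 ± 0.40, adjusted p = 0.00011) and R6/2 mice (1.72 ± 0.36, adjusted p = 0.0011), whereas Ric8a, which serves the other alpha subunits, was lower (-1.17 ± 0.23 and -0.78 ± 0.21, adjusted p = 0.00039 and 0.0077). Ric8a too was clearly lower in the 1-file samples alone (35.6 to 53.2 CPM), as the 2-file samples (85.5 and 75.4 CPM in NT, 90.8 and 114 CPM in R6/2 mice) overlapped the cortex (80.9 to 111 CPM and 76.5 to 102 CPM).

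The genotype differences of Gnb5, Rgs9 and Rgs7bp stood beside a fall of striatal neuron markers. Of 10 markers of striatal projection neurons, 8 were lower in the R6/2 striatum (among them Ppp1r1b, Drd2, Penk, Rgs9 and Adcy5), against 3.84% of all genes. The summed level of the 10 ranged from 10758 to 14691 CPM in NT and from 2042 to 3481 CPM in R6/2 samples, without overlap. Rgs9 and Adcy5 are the same genes as the partner and the effector above, so the marker list is not independent of them and its sum includes their reads. The part of the markers in the Gnb5 result was not tested. In such bulk tissue, fewer cells of a type and less RNA per cell cannot be told apart. In the cortex the summed level of the same markers was 432 to 516 CPM in NT and 112 to 153 CPM in R6/2 samples, with 2 of 3 tested genes lower. The 6 oligodendrocyte markers summed to 13288 to 31244 CPM in the NT and 13359 to 19934 CPM in the R6/2 striatum and to 3676 to 7427 CPM in the NT cortex. All 10 projection neuron markers differed between regions with Gnal and Gng7, and this too was not tested as their source. The cortical excitatory markers summed to 133 to 356 CPM in the NT and 78.9 to 160 CPM in the R6/2 striatum, against 203 to 494 CPM in the NT cortex.

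Genes whose pattern over the 16 samples came close to that of a member were found by the root mean square difference of log2 CPM around each gene's mean. For Gng7 they included Pde1b (0.79, against an SD of 2.57 for Gng7 itself), a phosphodiesterase that breaks down cyclic nucleotides. For Gnal they were Cx3cl1 (0.43, against an SD of 1.66) and Rxrg (0.49). For Gnas they were Ckap4 (0.26, against 1.10) and Syn2 (0.29), and for Gnai1 Flot1 (0.20, against 0.78) and Smyd2 (0.26). Members that varied less had Kars (0.19) and Cntn1 (0.20) for Gnao1 (SD 0.32), Ap2s1 (0.23) and Dnajb14 (0.25) for Gnai2 (SD 0.50), Btrc (0.33) and Ppp1r3c (0.34) for Gnb1 (SD 0.54), Fkbp1a (0.22) and Car2 (0.23) for Gnb5 (SD 0.49), and 2210013O21Rik (0.34) and Clip3 (0.35) for Gng3 (SD 0.77). These likenesses describe the 16 samples, which share region, genotype and number of files.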

How the data were processed

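The authors deposited raw isoform counts in 20 files of 16 samples, not normalized and before any transcript filter. Per the labels and methods, reads that held a full transcript and its tail were mapped to mm10 with minimap2 (2.17-r941), corrected with TranscriptClean and assigned with TALON to Ensembl isoforms. The same 815498 isoforms are listed in every file, of which 849 belong to the members. The 2 files of 4 striatal samples were read as runs and summed. Gene counts are sums of known, incomplete (ISM), NIC and NNC isoforms, where NIC and NNC isoforms have new combinations of splice sites or new splice sites. Genomic, antisense and intergenic classes were left out. Complete reads leave out ISM isoforms.

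Levels and tests used edgeR 4.0.16 (R 4.3.3) with TMM, filterByExpr, the quasi-likelihood test and Benjamini-Hochberg adjustment over all genes (threshold 0.05). The number of files was a term wherever striatal samples were fitted. Regional differences and the interaction came from 1 fit of all 16 samples, so comparisons share samples. Usage was tested with diffSpliceDGE for isoforms, first exons, last exons and cassette exons of at least 10 reads, with exons from GENCODE M21, to which 99.2% of known isoforms matched. Alternatives used DESeq2 1.42.0 among others, and scripts were first tested on simulated data. Permutation tests went over every arrangement with numpy 2.4.6, and counting limits came from scipy 1.17.1. The striatal samples of 1 or of 2 files alone were added after the data were seen. The members and lists were chosen with earlier results of these data known. All 10 members are named in every comparison, as are isoforms with at least 5% of complete reads in a group and 10 reads in all, at most 4 called genes per direction of the list of other subunits, and 2 genes of like pattern per tested member. A few items that these rules would name are not reported here. Partners, effectors and markers are named by their calls. Counting limits cover counting error only. No protein sequence or genome was used here.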

Additional observations from a re-analysis of the deposited data

Results flagged for a closer look

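In 4 of 79 groups of 4 samples tested, the sample farthest from the others lay beyond Dixon's critical ratio of gap to range, where chance gives about 1 in 20. Gnas stood at 1428 CPM in cortex R6/2 4, below the other samples of its group. Gng7 stood at 19.1 CPM in cortex R6/2 1, below the others, on 10 reads. The 3-exon isoform of Gng7 took 5% of the first exon reads in cortex R6/2 3, which is 1 of 20 reads, and 0 in the others of the group. The share of Gnal among Gnal and Gnas reads was 31.1% in striatum R6/2 3, above the others.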

How the results depend on the processing

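The count of members called between genotypes in the striatum, 1, became 2 with upper-quartile factors, 3 with DESeq2, 3 without a filter on low counts, 3 with the genomic class added, 2 in 1 fit of all 16 samples, and 0 without the term for the number of files, 0 in striatal samples of 1 file and 0 in those of 2 files, and ranged from 1 to 3 when each sample was left out, the gains being without striatum NT 4 (Gng7 and Gng3) and striatum NT 1 (Gng3). Gng7 and Gng3 made up the other gains too. Over all genes, 200 calls in the cortex became 95 without ISM isoforms (95 to 305 leaving out each sample). In the striatum 332 became 606 without the filter, 181 with the first file only, 39 without the file term and 55 and 34 in samples of 1 and 2 files (143 to 391 leaving out each). Between regions, 2467 calls in NT mice became 1101 without the file term and 1559 with 2-file striatal samples, and 2014 in R6/2 mice became 840 without the file term. The interaction's 3 calls became 7 with DESeq2, 8 without the filter and 1 without ISM isoforms or the file term (1 to 3 leaving out each). For isoform usage, 11 cortical calls became 7 with known isoforms only and 28 with the F test (1 to 15 leaving out each), 20 striatal calls became 3 without the file term, 7 with known isoforms, 11 with ISM isoforms, 74 with the F test and 8 with the first file (5 to 26), 21 regional calls in NT mice became 144 with ISM isoforms and 52 with the F test (12 to 37), and 28 in R6/2 mice became 17 without the file term, 170 with ISM isoforms and 63 with the F test (8 to 29). Members called for isoform usage between regions in NT mice, 1, became 3 with ISM isoforms (Gnas and Gnai2 added) and 2 with the F test. Members called for first exon usage in NT mice, 2, became 1 without the file term, and ranged from 1 to 2 leaving out each sample, as in R6/2 mice. Of the single genes, the following changed sign, among which only Gnai1 between regions in R6/2 mice had been called. Gnai2 gave -0.012 in the cortex without ISM isoforms (-0.080 to 0.22 leaving out each), and Gnas -0.22 and Gnao1 0.11 between genotypes in 2-file striatal samples. Between regions in NT mice, Gnai2 gave 0.035 with DESeq2, 0.14 without the filter, 0.11 with the genomic class and 0.12 with the first file (-0.25 to 0.28 leaving out each), and Gnb1 0.23 with the genomic class and 0.10 with 2-file samples. Between regions in R6/2 mice, Gnao1 gave 0.038 with upper-quartile factors, 0.11 with DESeq2, 0.17 without the filter and without ISM isoforms, 0.16 with the first file, 0.18 without the file term and 0.52 with 2-file samples (-0.11 to 0.25), Gnb1 0.033 without the filter, 0.37 with the genomic class, 0.067 with the first file, 0.019 without the file term, 0.0014 with 1-file and 0.095 with 2-file samples (-0.39 to 0.073), Gnai1 0.011 without ISM isoforms, and Gnai2 -0.91 without ISM isoforms, -0.31 without the file term and -0.78 with 2-file samples (-0.14 to 0.30). Gnb5 ranged from -0.037 to 0.25 there and Gnal from -0.43 to 0.11 between genotypes in the cortex when each sample was left out. The cause of these changes was not tested. Gnal, Gng7 and Gnas kept their regional calls and directions in both genotypes under all 10 alternatives.

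The labels do not say that the sample numbers pair the samples. Deviations of same-numbered cortical and striatal samples correlated at -0.23, 0.22, 0.12 and -0.17 in NT and at 0.40, 0.19, 0.38 and -0.04 in R6/2 mice, where 3 of 4 cortical samples correlated best with their own number (2 of 4 in NT), so a pairing was not shown. With the sample number as a replicate block, 2 members were called in the striatum, Gng7 being added, and 185 genes in all, the interaction had 1 call, Gnas lost its first exon call in NT mice (adjusted p = 0.071), leaving 1 member, and Gnai2 gave 0.026 between regions in NT mice.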
